A study of Mus musculus with 2 samples.

Results

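The unfolded protein response (UPR) sensors, the transcription factor Xbp1 and genes of ER-associated degradation (ERAD) were followed in splenic DC from 2 pools of mice, WT and H2-Aa cit/cit. They are 10 of the 32285 genes counted in both libraries, chosen by symbol with earlier results of these data known: Ern1, Atf6, Eif2ak3, Xbp1, Herpud1, Sel1l, Syvn1, Derl1, Edem1 and Os9. Each library was made from DC pooled from 3 naive female mice aged 4 months, either H2-Aa +/+ (WT) or homozygous for cit, an ENU-induced splice site allele of H2-Aa on the C57BL/6J background that every cell of the animal carries. The H2-Aa cit/cit library is called the mutant library, and its cells mutant cells. CD11c-enriched spleen cells were sorted as live CD45.2+ CD11c+ cells and sequenced with a 10x 3′ kit. With 1 library per genotype there is no replicate error and no test, and every interval below is a 95% interval that covers counting error only. Differences between genotypes cannot be told apart from differences between these 2 libraries.

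H2-Aa, the gene that carries the mutation, was at 5410 CPM (UMIs per 1000000 UMIs) in the WT and 66.2 CPM in the mutant library, as the labels require. The WT library held 7814 cells and 51020804 UMIs, the mutant library 11525 cells and 72652201 UMIs, and 31 cell barcodes occurred in both. Cells were put into classes by marker genes, none of them a member, and 7118 WT and 10403 mutant cells received a class. The classes compared were cDC1-like (593 WT and 626 mutant cells), cDC2-like (1994 and 5068), Ccr2+ cDC2-like (127 and 284) and mature DC-like (1785 and 1108). The others were pDC-like (97 and 95), proliferating (299 and 565) and a class high in Wdfy4 with a low share of ribosomal protein UMIs (1927 and 2455). Xcr1, Clec9a, Cadm1 and Naaa were among the 10 leading genes of the cDC1-like class in both libraries, and Ltb and Ffar2 among those of the cDC2-like class. The Wdfy4-high class had 1 of its own markers, Gm15261, among its 10 leading genes and is named by its gate. Of cells near the limit of the cDC1 gate, within about 25% of it and of any class, there were 218 in WT and 211 in the mutant library. For the cDC2 gate there were 1326 and 2089, and for the Wdfy4-high gate 1143 and 1914. The Ccr2+ cDC2 gate had 136 and 298, more than the cells of that class. The mature DC gate had 347 and 298, the pDC gate 11 and 23 and the proliferating gate 145 and 208. Clusters of cells, built without the members, were split between the libraries within some classes. Of the cDC1-like cells, cluster 16 held 335 in WT and 580 in the mutant library and cluster 19 held 179 and 12. Cluster 8 held 3 WT and 836 mutant cDC2-like cells, and cluster 17 held 417 and 24 mature DC-like cells. In clusters 8, 17 and 19 at least 90% of the cells were of 1 library, so results are also given without them, a choice made after seeing the data. The clustering left out the members alone and did not align the libraries. Clusters of 1 library can thus arise from the difference between the libraries in other genes, those of the same pathway included. Leaving them out is no independent check. The median cDC1-like cell had 9673 UMIs in WT and 14297.5 in the mutant library. In cDC2-like cells the medians were 7941.5 and 6698.5.

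Misfolded proteins in the ER activate 3 sensors in its membrane. IRE1α, encoded by Ern1, splices Xbp1 mRNA and cuts other mRNAs in a process called regulated IRE1-dependent decay (RIDD). ATF6 is cleaved in the Golgi to release a transcription factor, and PERK, encoded by Eif2ak3, phosphorylates eIF2α and leads to translation of ATF4. ERAD removes misfolded proteins from the ER for destruction by the proteasome. Among splenic DC, cDC1 are known for IRE1 activity in the steady state, without added stress. UMIs from the 3′ end count Xbp1 mRNA and do not separate its spliced from its unspliced form.

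Stretches of 3 promoters that hold a published stress element are shown because their genes recur in the results: Herpud1 and Syvn1 are members, and Derl3 is another ERAD gene. The sequences are from RefSeq on GRCm38.p6, on the + strand, 5′ to 3′, in the 100 bases printed for each, and capitals mark the element. The ER stress element ERSE was searched as CCAAT, any 9 bases and then CCACG. The element ERSE-II was searched as ATTGG, any 1 base and then CCACG. Both strands of 300-base windows around the start of each gene were read. ERSE was found in 0.119% and ERSE-II in 0.0365% of 32851 windows.
Herpud1: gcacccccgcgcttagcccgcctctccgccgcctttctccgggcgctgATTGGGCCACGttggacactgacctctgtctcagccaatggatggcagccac
Syvn1: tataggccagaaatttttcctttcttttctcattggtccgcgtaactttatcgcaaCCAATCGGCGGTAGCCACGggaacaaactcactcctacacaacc
Derl3: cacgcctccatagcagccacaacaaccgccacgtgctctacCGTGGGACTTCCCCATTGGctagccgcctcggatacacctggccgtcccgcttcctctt
The stretches lie at chr8:94386329-94386428 for Herpud1, chr19:6046476-6046575 for Syvn1 and chr10:75893201-75893300 for Derl3. Counting back from the start of transcription given by RefSeq, the ERSE-II of Herpud1 spans bases -52 to -42, the ERSE of Syvn1 bases -44 to -26, and the ERSE of Derl3, which reads on the opposite strand, bases -156 to -138. These 3 matches lie in different windows, so none overlaps another. A window was at hand for 8 of the 10 members, not for Atf6 and Derl1. Neither element was matched in the windows of Ern1, Eif2ak3, Xbp1, Sel1l, Edem1 and Os9. An XBP1 motif, TGACGTGG, was in 0.676% of all windows and in that of no member. A match describes letters in the window, and binding was not measured.

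The members differed most between the libraries in cDC1-like cells, and there mainly in the ERAD genes. All 10 members were at or above 10 CPM in this class, and all 10 were higher in the mutant library, with a median log2 ratio of 0.97 against -0.03 for the 8191 genes at 10 CPM or more. Of the members, 8 were more than 1.5-fold and 5 more than 2-fold higher. Of all genes, 8.81% were 1.5-fold higher and 3.71% 2-fold higher. No member was 1.5-fold lower, as 8.27% of all genes were.

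**Figure D1:**
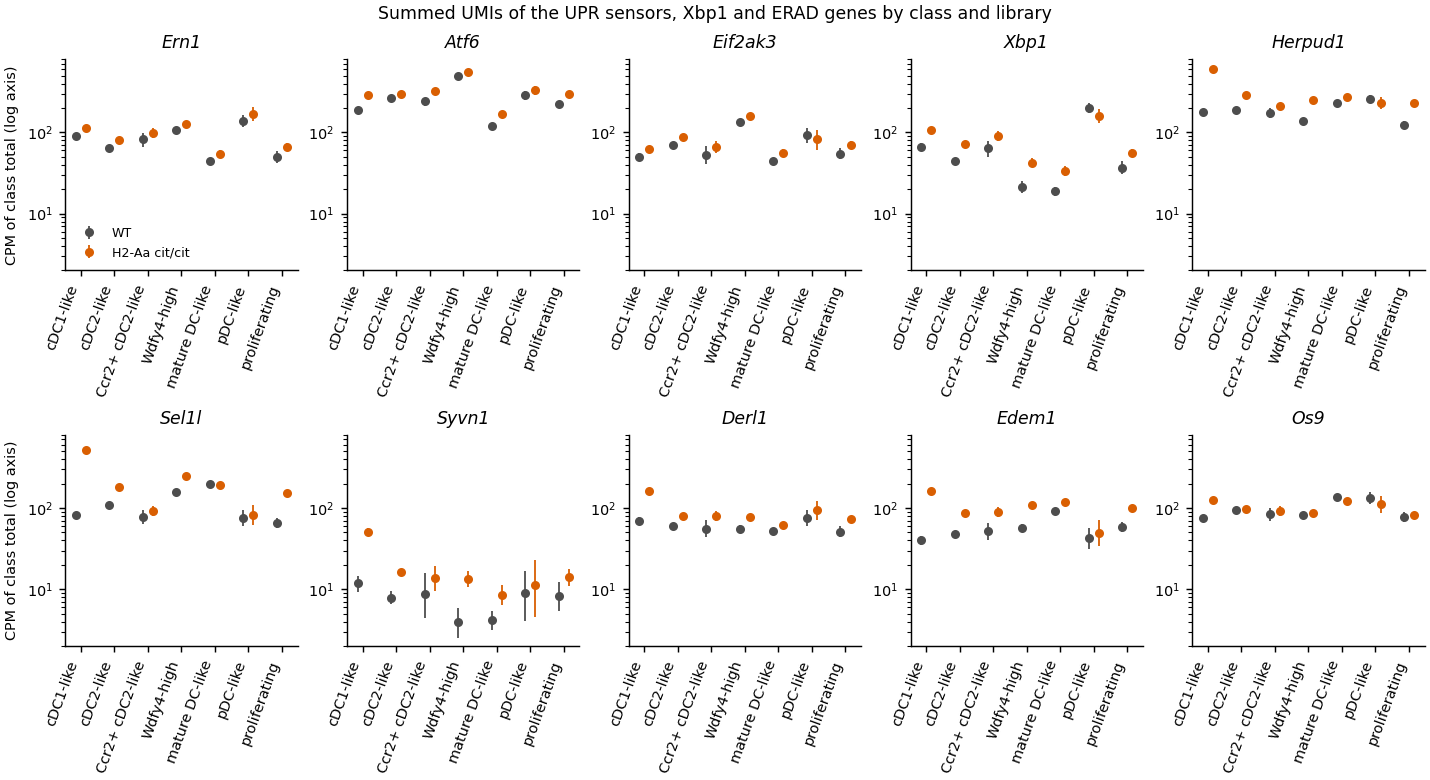
CPM (UMIs per 1000000 UMIs of the class, log axis) of each member gene in 7 cell classes of the WT (grey) and the mutant (H2-Aa cit/cit) library (orange), with 95% Poisson intervals. Herpud1, Sel1l, Syvn1, Derl1 and Edem1 stand highest in mutant cDC1-like cells, while Ern1 and Xbp1 are highest in pDC-like cells in both libraries.

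Sel1l, the adaptor that joins ERAD substrates to the ubiquitin ligase, was at 81.0 CPM (530 UMIs, interval 74.2 to 88.2) in WT and 511 CPM (4434 UMIs, 496 to 527) in mutant cDC1-like cells. The log2 ratio of 2.66 (2.53 to 2.79), or 6.31-fold, was the largest among the members and above 99.4% of all genes. Syvn1, which encodes that ligase (HRD1), was at 11.8 CPM (77 UMIs, 9.29 to 14.7) in WT and 51.2 CPM (444 UMIs, 46.6 to 56.2) in mutant cells, a log2 ratio of 2.12 (1.77 to 2.49). So the ligase and its adaptor were 4.35-fold and 6.31-fold higher, and in neither gene did the intervals of the libraries overlap.

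Edem1, a lectin-like protein that directs misfolded glycoproteins to ERAD, was at 40.2 CPM (263 UMIs, 35.5 to 45.4) in WT and 160 CPM (1383 UMIs, 151 to 168) in mutant cDC1-like cells, a log2 ratio of 1.99 (1.80 to 2.18). Herpud1, an ER membrane protein that assists the ligase complex, was at 178 CPM (1163 UMIs, 168 to 188) and 606 CPM (5256 UMIs, 590 to 623), a log2 ratio of 1.77 (1.68 to 1.86). In WT, Edem1 was lower in cDC1-like cells than in the other 8 classes measured, though its interval overlapped those of pDC-like and cDC2-like cells and others, and in the mutant library it was highest in cDC1-like cells. Derl1, a channel-like component of retrotranslocation, was at 70.1 CPM (459 UMIs, 63.9 to 76.9) and 164 CPM (1418 UMIs, 155 to 172), a log2 ratio of 1.22 (1.07 to 1.38). Os9, a lectin that recognises trimmed glycans on ERAD substrates, was at 76.3 CPM (499 UMIs, 69.7 to 83.2) and 125 CPM (1088 UMIs, 118 to 133). Its log2 ratio of 0.72 (0.56 to 0.87) was the smallest of the 6 ERAD members.

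The sensors differed less than the ERAD genes in the same cells. Ern1 was at 90.6 CPM (593 UMIs, 83.5 to 98.2) in WT and 114 CPM (990 UMIs, 107 to 122) in mutant cDC1-like cells, a log2 ratio of 0.33 (0.19 to 0.48). Eif2ak3 was at 50.3 CPM (329 UMIs, 45.0 to 56.0) and 62.2 CPM (539 UMIs, 57.0 to 67.6), a log2 ratio of 0.31 (0.11 to 0.51). These 2 members were the ones that stayed under 1.5-fold. Atf6 was at 187 CPM (1223 UMIs, 177 to 198) and 286 CPM (2479 UMIs, 275 to 297), a log2 ratio of 0.61 (0.51 to 0.71), just past the 1.5-fold line. Xbp1, the substrate of IRE1α and a transcription factor for ERAD genes, was at 67.1 CPM (439 UMIs, 61.0 to 73.7) and 108 CPM (933 UMIs, 101 to 115), a log2 ratio of 0.68 (0.52 to 0.85).

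No single cell carried these sums. The cell with the most UMIs of a member held at most 3.90% of its UMIs in WT cDC1-like cells (Syvn1) and at most 1.41% in mutant cDC1-like cells (Ern1). In cells of 5000 to 15000 UMIs alone, a range chosen after the depth gap was seen, the number of members past 1.5-fold was 9. Without clusters 17 and 19 (384 WT and 614 mutant cDC1-like cells) it was 6, all of them ERAD genes, with Atf6 at 0.42 and Xbp1 at 0.58 and a median of 0.94. The share of all genes was not worked out for either setting, so these counts cannot be set against 8.81%.

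**Figure D2:**
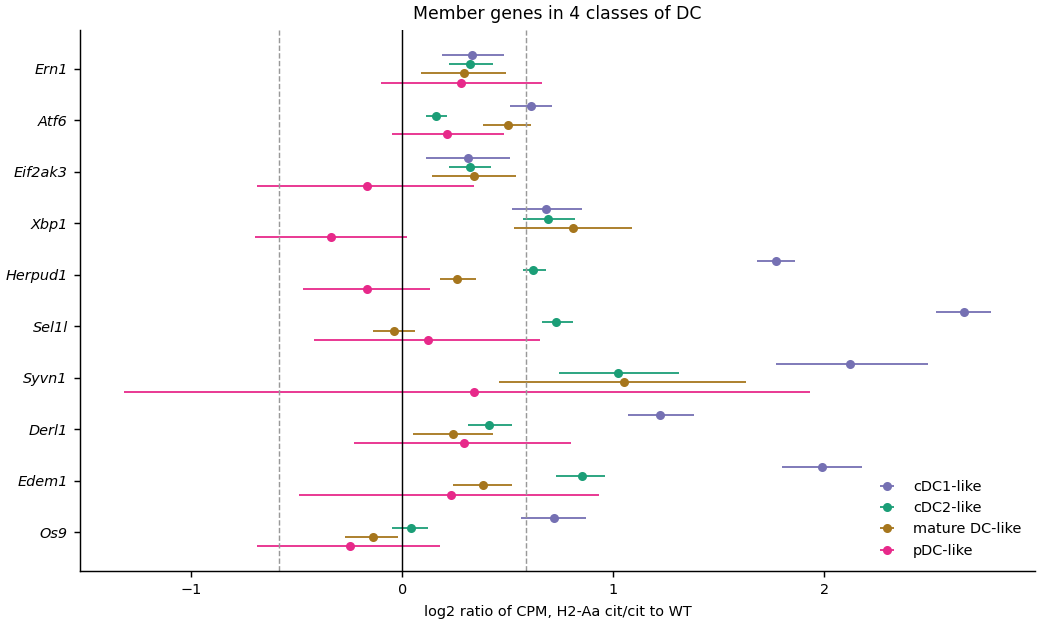
Log2 ratio of CPM, mutant to WT, of each member in 4 classes, with 95% intervals from the UMI counts and dashed lines at 1.5-fold. The cDC1-like points of Herpud1, Sel1l, Syvn1, Derl1 and Edem1 lie right of all others, the cDC2-like points reach at most 1.02, and every pDC-like interval includes 0.

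In cDC2-like cells the same direction was seen at a smaller size. The median log2 ratio of the members was 0.52 against -0.01 for 8483 genes, and 5 members were more than 1.5-fold higher, as 2.36% of all genes were. Syvn1 was 2-fold higher, as 0.707% of all genes were, at 7.91 CPM (125 UMIs) in WT and 16.1 CPM (588 UMIs) in mutant cells. Its log2 ratio was 1.02 (0.74 to 1.31). Syvn1 reached 10 CPM in the mutant library alone, and of the 9 members at 10 CPM or more in WT 4 were more than 1.5-fold and 0 more than 2-fold higher. Edem1 followed with 48.0 and 86.4 CPM and a log2 ratio of 0.85 (0.73 to 0.96). Sel1l was at 108 and 180 CPM, a log2 ratio of 0.73 (0.66 to 0.81), and Herpud1 at 189 and 292 CPM, a log2 ratio of 0.62 (0.57 to 0.68). The ratios were smaller without the clusters mostly of 1 library (1987 WT and 4232 mutant cells left): 2 members were past 1.5-fold, Syvn1 at 0.63 and Edem1 at 0.61, with Xbp1 at 0.56, Sel1l at 0.38, Herpud1 at 0.33 and a median of 0.32. Why the ratios were smaller without these clusters was not tested, and the share of all genes was not worked out for this setting.

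Xbp1 differed by nearly the same ratio in both classes, with 44.1 CPM in WT and 71.3 CPM in mutant cDC2-like cells, a log2 ratio of 0.69 (0.57 to 0.82). Ern1 (0.32, 0.22 to 0.43) and Eif2ak3 (0.32, 0.22 to 0.42) also had log2 ratios close to those in cDC1-like cells. By contrast the log2 ratio in cDC1-like cells was above that in cDC2-like cells by 1.92 for Sel1l, 1.15 for Herpud1, 1.14 for Edem1, 1.10 for Syvn1, 0.81 for Derl1 and 0.68 for Os9. For the 6 ERAD members and for Atf6 the intervals of the 2 classes did not overlap. Whether the classes differ in response cannot be tested with 1 library per genotype. Derl1 (0.41, 0.31 to 0.52) and Atf6 (0.16, 0.11 to 0.21) stayed under 1.5-fold in cDC2-like cells, and the interval of Os9 (0.04, -0.05 to 0.12) included 0.

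Among the other classes, Syvn1, Edem1, Xbp1, Herpud1 and Sel1l were again the members past 1.5-fold. In the Wdfy4-high class these 5 were higher (3.91% of all genes), with a log2 ratio of 1.79 (1.12 to 2.51) for Syvn1 from 24 and 82 UMIs, 0.99 (0.68 to 1.30) for Xbp1, 0.92 (0.73 to 1.11) for Edem1, 0.88 (0.76 to 1.01) for Herpud1 and 0.66 (0.55 to 0.78) for Sel1l. In proliferating cells the same 5 were higher (4.14% of all genes), led by Sel1l at 66.0 CPM in WT and 151 CPM in mutant cells, a log2 ratio of 1.19 (0.96 to 1.42). The proliferating class held cells with cDC1 genes, and the summed level of 7 cDC1 genes in it was 707 CPM in WT and 448 CPM in the mutant library. Without cells past a low limit for the summed rate of these genes, a change made after seeing the data, 3 members were past 1.5-fold. Cells with fewer UMIs of these genes stayed in, and the share of all genes was not worked out for this setting. In Ccr2+ cDC2-like cells Edem1 (0.79, 0.38 to 1.21) and Syvn1 (0.65, -0.37 to 1.79, from 11 and 32 UMIs) were past 1.5-fold (7.36% of all genes). In these 3 classes Syvn1 reached 10 CPM in the mutant library alone, and among the 9 members at 10 CPM or more in WT 4, 4 and 1 were past 1.5-fold. The share of all genes with that WT minimum was not worked out.

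Mature DC-like and pDC-like cells had the smallest median log2 ratios of the members, 0.32 and 0.17. In mature DC-like cells 9 members reached 10 CPM and 1 of these, Xbp1, was 1.5-fold higher (7.63% of all genes), at 18.9 CPM in WT and 33.2 CPM in mutant cells, a log2 ratio of 0.81 (0.53 to 1.09). Syvn1, below 10 CPM, was at 4.14 and 8.55 CPM. In this class WT cells already held 200 CPM of Sel1l, more than in any other WT class, and mutant cells held 194 CPM, a log2 ratio of -0.04 (-0.14 to 0.06). For Os9 the level was 136 CPM (WT) and 123 CPM (mutant), a log2 ratio of -0.14 (-0.27 to -0.02). The 7 cDC1 genes were at 158 CPM in WT and 49.1 CPM in mutant mature DC-like cells. Without cells past the same low limit for these genes, a choice made after seeing the data, the log2 ratio was -0.01 for Sel1l, -0.17 for Os9 and 0.73 for Xbp1. Without clusters mostly of 1 library it was 0.15 for Sel1l, -0.12 for Os9 and 0.68 for Xbp1.

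In pDC-like cells no member was 1.5-fold higher (9.53% of all genes), and log2 ratios ran from -0.34 (-0.70 to 0.02) for Xbp1 to 0.34 (-1.32 to 1.93) for Syvn1. With 97 and 95 cells, a difference of 1.5-fold was within the interval of Ern1, Eif2ak3, Xbp1, Sel1l, Syvn1, Derl1, Edem1 and Os9. The interval of Herpud1, which was at 259 CPM (261 UMIs) in WT and 230 CPM (143 UMIs) in mutant pDC-like cells, ended at 0.13. No member was 1.5-fold lower in the Ccr2+ cDC2-like (6.34% of all genes), cDC2-like (1.93%), Wdfy4-high (2.98%), mature DC-like (5.21%), pDC-like (10.9%) or proliferating class (3.71%).

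The order of the 9 classes by level, macrophages and monocyte-like cells included, differed between the sensors. Ern1 was highest in pDC-like cells, with 139 CPM (117 to 164) in WT and 169 CPM (138 to 204) in mutant cells, and lowest in mature DC-like cells, with 44.3 and 54.4 CPM. In WT its interval in pDC-like cells overlapped that of the next class, monocyte-like cells, and its interval in cDC1-like cells those of the neighbours on both sides. Xbp1 was likewise highest in pDC-like cells, at 201 CPM (175 to 231) in WT and 159 CPM (129 to 194) in mutant cells, and lowest in mature DC-like cells, and in both libraries its first and next class overlapped. Atf6 and Eif2ak3 were highest in the Wdfy4-high class, Atf6 at 501 CPM (483 to 519) in WT and Eif2ak3 at 135 CPM (126 to 144), with no overlap with the next class. Levels in this class were shifted up for genes at large. Against cDC2-like cells the median log2 ratio of all genes was 0.36 in WT and 0.41 in the mutant library. In WT the ratio was 0.91 for Atf6 and 0.93 for Eif2ak3. For Herpud1, Sel1l and Edem1 the first place moved: in WT it was held by pDC-like cells for Herpud1 and by mature DC-like cells for Sel1l and Edem1, and in the mutant library by cDC1-like cells for all 3. In that library the interval of cDC1-like cells was above that of the next class for each of these 3 genes, while in WT the first 2 classes of Herpud1 overlapped. Within the mutant library Syvn1, Derl1 and Os9 also had their highest level in cDC1-like cells, with intervals that overlapped those of the next class, macrophages for Syvn1 and Derl1 and mature DC-like cells for Os9.

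Within the WT library, cDC1-like cells were compared with cDC2-like cells, since the former are known for IRE1 activity without added stress. Xbp1 was 1.52-fold higher in cDC1-like cells, with 67.1 against 44.1 CPM (log2 ratio 0.61, 0.43 to 0.78), and was the 1 member past 1.5-fold, as 12.1% of all genes were. The log2 ratio of Ern1 was 0.48 (0.33 to 0.63), that of Syvn1 0.57 (0.14 to 0.99) and that of Derl1 0.23 (0.07 to 0.39). The other sensors were lower in cDC1-like cells, with log2 ratios of -0.51 (-0.60 to -0.42) for Atf6 and -0.49 (-0.67 to -0.31) for Eif2ak3. Sel1l (-0.42), Os9 (-0.31) and Edem1 (-0.26) were also lower, with intervals below 0, and the interval of Herpud1 (-0.09, -0.19 to 0.01) included 0. So in WT the ERAD members had no common direction between these classes, and none was past 1.5-fold in the gated classes. Under other settings Sel1l was, at -0.68 with clusters in place of gates, and so was Syvn1, at 0.60 to 0.88 under 5 alternatives. The median of all genes was itself -0.17 in this comparison (-0.16 in the mutant library), and 23.3% of genes were 1.5-fold lower. Scaled to the median ratio of all genes, Xbp1 (0.78), Syvn1 (0.75) and Ern1 (0.66) were past 1.5-fold in WT, and Herpud1 changed sign, to 0.08.

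**Figure D3:**
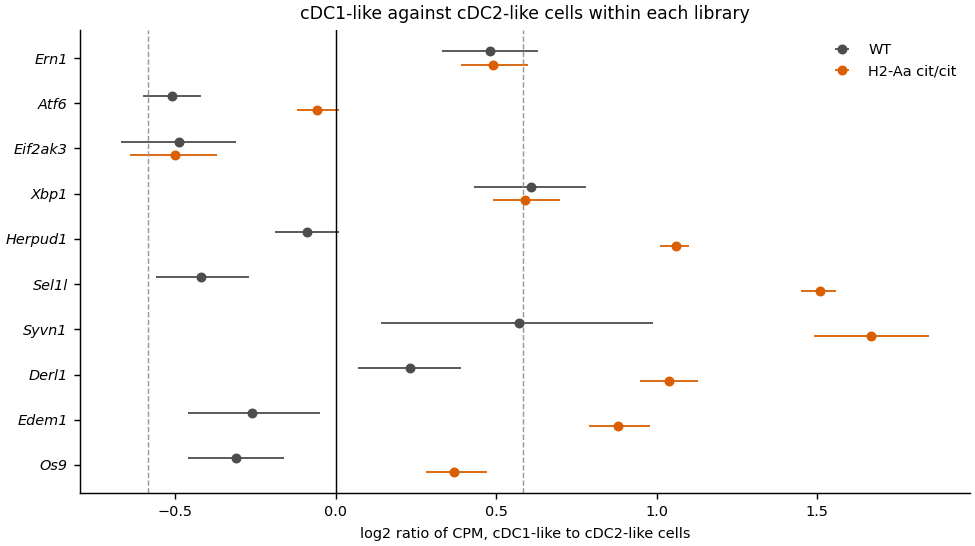
Log2 ratio of CPM in cDC1-like to cDC2-like cells for each member, in the WT (grey) and the mutant (H2-Aa cit/cit) library (orange), with 95% intervals and dashed lines at 1.5-fold. Ern1, Eif2ak3 and Xbp1 have nearly the same ratio in both libraries, while the ERAD genes lie further right in the mutant library.

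In the mutant library 6 members were past 1.5-fold higher in cDC1-like than in cDC2-like cells, as 13.7% of all genes were, and none of the members was 1.5-fold lower, as 24.7% of all genes were. Syvn1 (log2 ratio 1.67, 1.49 to 1.85) and Sel1l (1.51, 1.45 to 1.56) led, followed by Herpud1 (1.06, 1.01 to 1.10), Derl1 (1.04, 0.95 to 1.13), Edem1 (0.88, 0.79 to 0.98) and Xbp1 (0.59, 0.49 to 0.70). Sel1l, Edem1 and Os9 were thus on the cDC2-like side in WT and on the cDC1-like side in mutant cells. Ern1, at 0.49 (0.39 to 0.60), and Eif2ak3, at -0.50 (-0.64 to -0.37), kept their WT ratios within the intervals.

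The ERAD genes were then counted within single cells, after each cell was thinned to 1500 UMIs so that depth was equal. Of 577 WT cDC1-like cells, 10.6% (exact binomial interval 8.18 to 13.4) had UMIs of at least 2 of the 6 ERAD members, against 50.2% (46.2 to 54.3) of 607 mutant cells. At least 3 were found in 1.91% and 21.1%, and none in 52.7% (48.5 to 56.8) and 15.2% (12.4 to 18.3). In cDC2-like cells 14.0% (12.5 to 15.7) of WT and 23.1% (22.0 to 24.3) of mutant cells had at least 2. In mature DC-like cells the shares were 22.2% and 24.4%, with overlapping intervals, and in pDC-like cells 18.6% and 14.1%, also overlapping. No class lacked these genes, so no share could serve as a background of free RNA. Cells with under 1500 UMIs were left out, which removed 16 WT and 19 mutant cDC1-like cells. Without thinning, 68.1% of WT and 93.9% of mutant cDC1-like cells had at least 2.

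**Figure D4:**
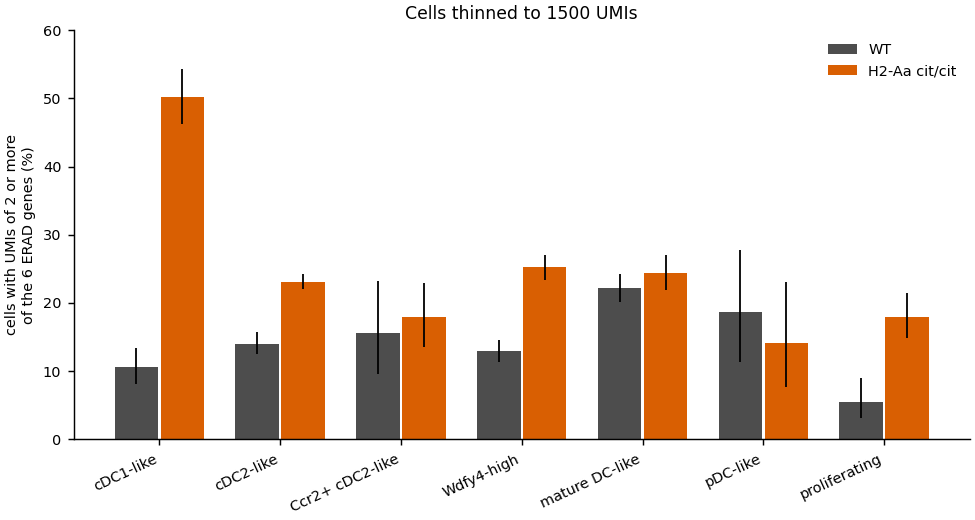
Share of cells (percent) with UMIs of at least 2 of the ERAD genes Herpud1, Sel1l, Syvn1, Derl1, Edem1 and Os9, per class in the WT (grey) and mutant (H2-Aa cit/cit) library (orange), after thinning to 1500 UMIs per cell. Bars start at 0 and lines are exact binomial 95% intervals. The mutant cDC1-like bar, at 50.2%, is the tallest, and the pDC-like bars overlap.

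Of single members, Herpud1 was found in 55.5% (51.5 to 59.5) of thinned mutant cDC1-like cells against 20.8% (17.6 to 24.3) in WT. Sel1l was found in 45.6% (41.6 to 49.7) and 10.9% (8.49 to 13.8) of these thinned cells. Edem1 was found in 20.6% (17.4 to 24.0) and 4.33% (2.82 to 6.33), and Xbp1 in 13.3% (10.7 to 16.3) and 7.97% (5.90 to 10.5). For Xbp1 the intervals of the libraries were close, and for Eif2ak3, at 9.39% (7.19 to 12.0) and 6.59% (4.70 to 8.93), they overlapped.

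Other genes of the pathway were taken from 6 hand-written lists, drawn up with earlier results of these data known. The authors had already named Hsp90b1, Calr, Canx, Sdf2l1, Dnajc3 and Pdia6, all on the ATF6 list, as raised in mutant cDC2 of these data. Dnajc3 and Pdia6 are also on the XBP1 list. The authors named Sec61 too, and Sec61a1, Sec61b and Sec61g are on the XBP1 list. The counts below are thus a description and no independent check against the share of all genes. In cDC1-like cells, 13 of 37 other ERAD genes at 10 CPM or more were 1.5-fold higher in the mutant library, as 8.81% of all genes were. None was 1.5-fold lower (8.27% of all genes), and the median log2 ratio of the list was 0.33. Derl3, a relative of Derl1 whose promoter stretch is shown above, had the highest ratio, with 9 UMIs (1.38 CPM) in WT and 1151 UMIs (133 CPM) in mutant cells, a log2 ratio of 6.59 (5.66 to 7.73). Its lowest was Dnajb14, a J-domain protein of the ER membrane, at -0.48 (-0.63 to -0.33). Derl3 was under 10 CPM in WT, and of the 36 genes at 10 CPM or more there 12 were higher, with a median of 0.27. Others, named after their values were seen, were Derl2 (1.12, 0.93 to 1.31), the EDEM family member Edem2 (1.11, 0.92 to 1.31), Selenok (1.60, 1.49 to 1.72) and Vcp (0.87, 0.77 to 0.98), the ATPase that pulls substrates out of the membrane. In cDC2-like cells 2 of 39 were higher, as 2.36% of all genes were, and the median was 0.03. Derl3 reached 10 CPM in the mutant library alone, and of the 38 genes at 10 CPM or more in WT 1 was higher. Derl3 was again the highest, from 9 to 722 UMIs, and Sel1l3 the lowest, at -0.45. In proliferating cells Derl3 had 0 UMIs in WT (interval 0 to 1.23 CPM) and 118 in the mutant library (22.4 CPM, 18.5 to 26.8). With the WT class set to 3 UMIs the ratio was 22.3-fold, which is no lower limit.

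Derl3 is also 1 of the 12 genes of the plasma cell list. In cDC1-like cells that list had UMIs for 8 genes in WT and 9 in the mutant library and summed to 60.2 and 221 CPM. Its immunoglobulin and J chain genes were at 4.28 and 2.42 CPM, and Sdc1 and Tnfrsf17, which define plasma cells, had 0 and 1 UMI. In cDC2-like cells the list summed to 39.1 and 58.5 CPM. Over all classes 49 WT and 79 mutant cells had UMIs of at least 3 of its genes. Without them 590 WT and 596 mutant cDC1-like cells were left, and 8 members were past 1.5-fold, with no share of all genes worked out. With Derl3, Txndc5 and Mzb1 not counted among the 3 genes, all 593 WT and 626 mutant cDC1-like cells stayed. Few cDC1-like cells were thus taken out, so these settings could change the members' ratios little. Lists of other cells also differed in the cDC1-like class. The summed level of the macrophage list (9 of 9 genes with UMIs in both libraries) was 50 CPM (327 UMIs) in WT and 99.8 CPM (865 UMIs) in the mutant library, and that of the neutrophil lineage list (5 and 6 of 9 genes) was 1.99 and 9.34 CPM. The pDC list was at 282 and 134 CPM, the B cell list at 27.7 and 8.88 CPM and the 7 cDC1 gate genes at 3493 and 2686 CPM. The part of these cells in the members' levels was not tested.

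**Figure D5:**
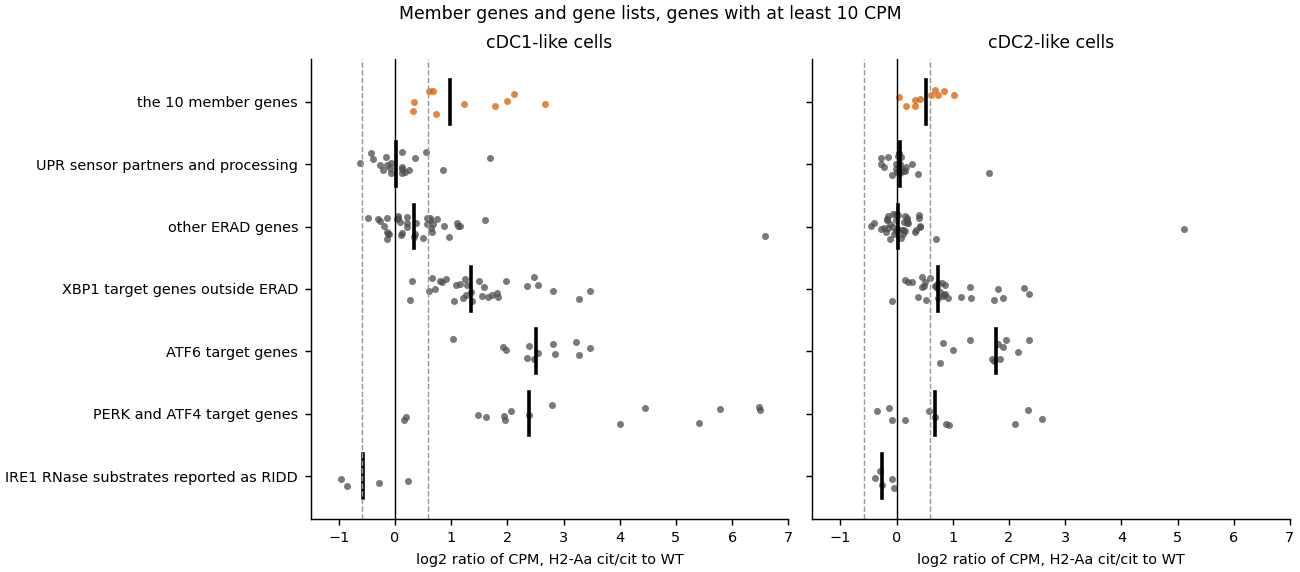
Log2 ratio of CPM, mutant to WT, in cDC1-like (left) and cDC2-like cells (right), for the members (orange) and the genes of 6 lists (grey) with at least 10 CPM in either library. Black bars are medians and dashed lines 1.5-fold. ATF6 targets and PERK and ATF4 targets lie furthest right in cDC1-like cells, and the partners of the sensors lie around 0 in both.

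The partners of the sensors passed 1.5-fold between the libraries about as often as all genes in cDC1-like cells. Of 20 partner and processing genes at 10 CPM or more there, 2 were 1.5-fold higher, as 8.81% of all genes were. In the other direction 1 was 1.5-fold lower, as 8.27% of all genes were. The median log2 ratio of the partners was 0.02. Creb3l2, a relative of ATF6 that is also released by cleavage in the Golgi, was highest at 1.69 (1.37 to 2.03), and Eif2ak4, the eIF2α kinase that senses amino acid shortage, lowest at -0.62 (-0.81 to -0.43). Rtcb, the ligase that joins the cut ends of Xbp1 mRNA, was at -0.17 (-0.31 to -0.03). The proteases that cleave ATF6 were at -0.08 (-0.34 to 0.19) for Mbtps1 and -0.09 (-0.35 to 0.17) for Mbtps2. In cDC2-like cells 1 of 20 was higher (2.36% of all genes), Creb3l2 at 1.65 (1.39 to 1.91), and the lowest was Mbtps2 at -0.28 (-0.41 to -0.14). Creb3l2 reached 10 CPM in the mutant library alone, and of the 19 partners at 10 CPM or more in WT 0 were higher.

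Targets of the 3 branches were all on the high side in mutant cDC1-like cells, where 8.81% of all genes were 1.5-fold higher. Of 31 XBP1 targets outside ERAD at 10 CPM or more, 29 were 1.5-fold higher, with a median of 1.35, from Sec62, a translocon subunit, at 0.26 (0.12 to 0.40) to Creld2, an ER stress-induced secreted protein, at 3.47 (3.29 to 3.66). All 12 ATF6 targets were higher, with a median of 2.51, and 6 of the 12 are also on the XBP1 list. The lowest of them was the chaperone Canx, at 1.03 (0.94 to 1.13). Hspa5, the chaperone BiP that binds the sensors in unstressed cells, had 497 CPM in WT and 3554 CPM in mutant cells, a log2 ratio of 2.84 (2.79 to 2.89). Of 15 PERK and ATF4 targets 13 were higher, with a median of 2.38, from Ppp1r15a, which restores eIF2α to its unphosphorylated form, at 0.16 (-0.13 to 0.45) to the stress-induced regulator Nupr1 at 6.50 (5.57 to 7.63), the latter from 9 and 1077 UMIs. Of these 13, 8 were under 10 CPM in WT (Trib3, Chac1, Asns, Nupr1, Ddit4, Slc7a11, Psat1 and Phgdh). Of the 7 targets at 10 CPM or more in WT, 5 were higher, with a median of 1.94.

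In cDC2-like cells 21 of 31 XBP1 targets, 12 of 12 ATF6 targets and 6 of 11 PERK and ATF4 targets were 1.5-fold higher, as 2.36% of all genes were. The medians were 0.74, 1.77 and 0.69. Of the targets at 10 CPM or more in WT, 20 of 30, 12 of 12 and 4 of 9 were higher, with medians of 0.74, 1.77 and 0.58. Sec24d, Nupr1 and Phgdh reached 10 CPM in the mutant library alone. Creld2 (2.36), Nupr1 (2.58), Sec62 (-0.08), Canx (0.78) and Ppp1r15a (-0.35) were the highest and lowest of their lists there too. In mature DC-like cells the counts were 19 of 31, 10 of 12 and 5 of 10 (7.63% of all genes). Medians there were 0.70, 1.54 and 0.50, and 1 XBP1 target was 1.5-fold lower (5.21%). Of those at 10 CPM or more in WT, 14 of 26, 7 of 9 and 3 of 8 were higher. All 12 ATF6 targets were higher in the Wdfy4-high class (3.91% of all genes), where Creld2 reached 10 CPM in the mutant library alone. In Ccr2+ cDC2-like (7.36%) and proliferating cells (4.14%) 11 of 12 were. In these 3 classes 18, 12 and 11 of 31 XBP1 targets were higher, and 4 of 9, 4 of 9 and 9 of 13 PERK and ATF4 targets. Of XBP1 targets at 10 CPM or more in WT, 15 of 28, 11 of 30 and 11 of 31 were higher. For PERK and ATF4 targets these counts were 2 of 7, 4 of 9 and 5 of 9. In pDC-like cells the counts were 3 of 31, 1 of 12 and 2 of 8 (9.53% of all genes), with medians of 0.03, 0.13 and -0.05. Of these 8, 2 were 1.5-fold lower (10.9%). Of the 7 PERK and ATF4 targets at 10 CPM or more in WT pDC-like cells, 1 was higher. Within WT, 19 of 31 XBP1 targets and 11 of 12 ATF6 targets were 1.5-fold higher in cDC1-like than in cDC2-like cells, as 12.1% of all genes were. Their medians were 0.63 and 1.02, and no PERK or ATF4 target was 1.5-fold higher. Of 9 PERK and ATF4 targets 4 were 1.5-fold lower in cDC1-like cells, as 23.3% of all genes were, with a median of -0.38. The lowest was Ddit4, an inhibitor of mTORC1 signalling, at -3.46. Ddit4 (57.3 CPM in cDC2-like and 5.20 CPM in cDC1-like cells) and Slc7a11 (18.6 and 3.21 CPM) reached 10 CPM in cDC2-like cells alone. Sec24d, on the XBP1 list, reached it in cDC1-like cells alone (5.51 CPM in cDC2-like and 31.8 CPM in cDC1-like cells). Counts with the minimum in 1 of these classes were not worked out. Dnajb9, a cochaperone that restrains IRE1α, was at -0.25 (-0.51 to 0.01) in that comparison.

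Few reported RIDD substrates were measurable. Of 10 listed, 4 reached 10 CPM in cDC1-like cells, with a median log2 ratio of -0.57, and 2 of them were 1.5-fold lower in the mutant library, as 8.27% of all genes were. Bloc1s1, a subunit of a lysosome-positioning complex, was at 85 UMIs (13.0 CPM) in WT and 58 UMIs (6.69 CPM) in mutant cells, a log2 ratio of -0.96 (-1.46 to -0.46). The integrin chain Itgb2 was at 156 and 86.3 CPM, -0.85 (-0.99 to -0.72). The other 2 were Tapbp, which loads peptides on MHC-I, at -0.29 (-0.41 to -0.16) and Ergic3, a cargo receptor, at 0.23 (-0.02 to 0.48). Bloc1s1 reached 10 CPM in the WT library alone. Hgsnat, also listed, was just under 10 CPM in both libraries and was not counted. It had 61 UMIs in WT and 78 in mutant cells, a log2 ratio of -0.05 (-0.55 to 0.46). The median of -0.57 and the share of 2 in 4 thus depend on the minimum of 10 CPM. In cDC2-like cells none of 5 was 1.5-fold lower (1.93% of all genes), with a median of -0.26. Bloc1s1 was again the lowest, at -0.38 (-0.63 to -0.13), and Ergic3 the highest, at -0.04 (-0.19 to 0.10). RNA decay was not measured, and its part in these levels was not tested.

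The genes whose levels ran most like each member were found over 18 points, 9 classes in each of the 2 libraries, by Pearson's r of log2(CPM + 10) among 8233 genes. The points share libraries and cell classes, so r is a description. Syvn1 ran with Sec11a, a signal peptidase subunit (r = 0.93), Hspa5 (0.91) and the disulfide isomerase Pdia4 (0.91). Herpud1 ran with Dnajb9 (0.89), the amino acid transporter chain Slc3a2 (0.81) and Ddit3, which encodes CHOP (0.80). Sel1l and Edem1 were each the closest gene to the other (0.83), followed by Nktr (0.80) and Far1 (0.77) for Sel1l and by Bcat2 (0.78) and Ddit3 (0.78) for Edem1. Derl1 ran with Mcfd2 (0.88), Canx (0.85) and Nucb1 (0.85).

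The sensors, Xbp1 and Os9 ran with other genes, none of them a member. Ern1 was closest to Max (0.85), Mroh1 (0.84) and Fndc3a (0.83), and Atf6 to Nfatc1 (0.93), Pnpla7 (0.90) and Foxo3 (0.87). Eif2ak3 was closest to Gm12064 (0.92), 2610008E11Rik (0.92) and Ppp6r2 (0.91). Xbp1 was closest to Hcst (0.93), Aldh2 (0.92) and Grn (0.92), and Os9 to Socs1 (0.82), Ubxn4 (0.81) and Scamp2 (0.79). Between members, r was 0.84 for Syvn1 and Derl1, 0.71 for Herpud1 and Sel1l, 0.66 for Ern1 and Xbp1, and -0.39 for Atf6 and Os9.

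Syvn1 overlaps Mrpl49 on the opposite strand and Herpud1 overlaps the antisense gene Gm15890 in the annotation of GRCm38. The sources used here do not state how strand was set in counting, so the values of these 2 members are uncertain by that much. In the same annotation Sel1l lies at chr12:91806043-91849157 on the - strand and overlaps no other gene.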

How the data were processed

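The deposited values are raw UMI counts for each gene in each cell. Per the labels, the authors obtained these counts from Cell Ranger 5.0.1 with mm10. The submitters' processing notes also name Seurat, with no version. Python 3.11.15, numpy 2.4.6, scipy 1.17.1, pandas 2.3.3, scanpy 1.11.5 and matplotlib 3.10.9 were used. Members and gene lists were chosen with earlier results of these data known, and the limits of the gates were set after the files were seen, on markers alone.

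Cells were gated in a fixed order by summed UMIs per 10000 of marker genes, and cells passing no gate were left out. Doublets were kept, except in one alternative. UMIs were added up by class and library and given as CPM of the class total, with exact Poisson intervals. Intervals of log2 ratios are exact conditional binomial intervals and shares have Clopper-Pearson intervals, at 95%. They cover counting error only. A gene was counted as higher or lower past 1.5-fold if it had at least 10 CPM in either group. Genes at 0 UMIs in 1 group were set to 3 UMIs for this count. Shares of all genes are for the gates as described and the minimum in either group. Counts under other settings, or with the minimum in WT, have no such share beside them. The interval and the 1.5-fold call of the log2 ratio were tried on counts simulated from WT cDC1-like sums with counting error alone. The other steps were not tried on simulated data. Genes named beside the members are H2-Aa, the highest and lowest of each list in cDC1-like and cDC2-like cells and the 3 genes most like each member, and others where the text says so or as examples picked after their values were seen. Promoter stretches are from RefSeq (GRCm38.p6), gene positions from GENCODE vM21.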

Additional observations from a re-analysis of the deposited data

Results flagged for a closer look

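Os9 differed in opposite directions in 2 classes. Its log2 ratio, H2-Aa cit/cit to WT, was 0.72 (0.56 to 0.87) in cDC1-like cells and -0.14 (-0.27 to -0.02) in mature DC-like cells, and both intervals exclude 0 for counting error alone. Under other settings the ratio ran from 0.62 to 0.79 in cDC1-like cells and from -0.28 to -0.04 in mature DC-like cells. The difference between the classes was not tested, since each genotype has 1 library.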

How the results depend on the processing

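Of 1518 values recomputed under other settings, 0 changed direction with a call, and 1372 stayed within their counting interval or, for counts of genes, within 1.5 times. In cDC1-like cells the 6 ERAD members stayed past 1.5-fold under all 13 alternatives to their ratios, as did Atf6 and Xbp1 under all but 1, and the count ran from 6 to 9 with a median log2 ratio of 0.94 to 1.04. Some alternatives could not move these values. Leaving out cells with 3 plasma cell genes outside the ER kept all 593 WT and 626 mutant cDC1-like cells. So did leaving out mature and proliferating cells with cDC1 genes. Without shared barcodes 593 and 625 were left. Values of such unchanged classes are among the 1518. In cDC2-like cells the count ran from 2 to 5 and the median from 0.32 to 0.56. The count of 2, the median of 0.32, the count of 6 and the values of Atf6 (0.42) and Xbp1 (0.58) came without the clusters of which 90% or more was 1 library, chosen after seeing the data. That setting gave 3 members higher between cDC1-like and cDC2-like cells in WT and a median of 0.93 in the mutant library. No paired analysis was possible because each genotype has 1 library.

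A 2-fold limit left 5 members in cDC1-like, 1 in cDC2-like, 0 in Ccr2+ cDC2-like, 1 in Wdfy4-high, 0 in mature DC-like and 1 in proliferating cells, and 0 between cDC1-like and cDC2-like cells in WT. With no minimum CPM, mature DC-like cells had 2. With the mean over cells, the counts were 1 in Ccr2+ cDC2-like, 0 in mature DC-like and 1 in pDC-like cells, and 0 between cDC1-like and cDC2-like cells in WT. Without cells of high doublet score mature DC-like cells had 0, and without cells with UMIs of 3 plasma cell genes pDC-like cells had 1. With clusters in place of gates the counts were 4 in Ccr2+ cDC2-like, 3 in mature DC-like and 2 in pDC-like cells. The share of all genes was not worked out under these other settings, so the counts cannot be set against one. Among cells of 5000 to 15000 UMIs, chosen after seeing the data, the median was 0.78 in the Wdfy4-high class and 3 members were past 1.5-fold in proliferating cells. Leaving out proliferating cells past the low limit for cDC1 genes, also chosen after seeing the data, gave 3.

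Between cDC1-like and cDC2-like cells in WT, 3 members were higher with median ratio scaling (median 0.00, and 0.90 in the mutant library), 2 with stricter gates and 2 with the total taken without mitochondrial and ribosomal genes. With clusters 2 were higher and 3 lower in WT, and 1 was lower in the mutant library. Among cells of 5000 to 15000 UMIs 0 were higher and 1 was lower in WT. At a minimum of 50 CPM, 0 partners of the sensors were higher in cDC1-like and 0 in cDC2-like cells, 7 PERK and ATF4 targets in cDC1-like and 1 other ERAD gene in cDC2-like cells. Without thinning, cells with at least 2 ERAD genes made up 68.1% of WT and 93.9% of mutant cDC1-like cells, and 74.5% and 76.6% of cDC2-like cells. Apart from changes of limit or thinning, the cause of these moves was not tested. Stricter gates left Ccr2+ cDC2-like and pDC-like cells under 50 in a library, so no value was given for them. Depth limited the small classes, with 2 to 32 UMIs of Syvn1 in monocyte-like cells, macrophages, pDC-like and Ccr2+ cDC2-like cells.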
